A study of Homo sapiens with 12 samples.

Results

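The miR-10, miR-99 and miR-100 family was followed across HCT116 cells, a human colorectal carcinoma line, carrying different rescue forms of DICER. The family was taken as a list of names, namely hsa-miR-10a-5p, hsa-miR-10a-3p, hsa-miR-10b-5p, hsa-miR-99a-5p, hsa-miR-99b-5p, hsa-miR-99b-3p and hsa-miR-100-5p. The opposite strands miR-10b-3p and miR-100-3p also have entries but are not on that list. All 7 were among the 1346 miRNA entries counted. The rescue proteins were the point mutants R821E and R821A, the forms named E5 and A5, the form named ΔPAZ helix, and wild type (WT), with 2 libraries each. By their names, R821E and R821A put glutamate or alanine in place of the same arginine of DICER, and ΔPAZ helix lacks a helix of the PAZ domain, which holds the end of the precursor. The labels do not explain the names E5 and A5, how the rescue proteins were expressed, whether each group is 1 clone, or what endogenous DICER the host cells kept. The series belongs to structural work on human DICER at the moment of cutting a precursor, and the mutants were set against WT to see what each change in the enzyme does to the miRNAs of cells.

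DICER cuts the loop from a precursor hairpin and releases a duplex, of which the 5p or the 3p strand is then kept by an Argonaute protein. The miR-10 and miR-99/100 hairpins are among the oldest in animals: their 5p strands share a core sequence that is shifted by a base between the branches, so that the branches carry different seeds and pair with different targets. MIR10A and MIR10B lie inside HOX gene clusters, whereas MIR99A, MIR99B and MIR100 each lie in a cluster with a let-7 and a miR-125 hairpin. The miR-99/100 branch is known for repressing MTOR, miR-10b for promoting invasion in breast cancer models, and miR-100 for its part in cetuximab resistance of colorectal cancer cells.

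The mature sequences are shown because the members that moved apart share a seed. They are given 5′ to 3′ from RefSeq (GRCh38.p14), which matched 6 of the 7 members, with the seed (bases 2 to 8) in capitals.
hsa-miR-100-5p: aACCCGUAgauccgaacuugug
hsa-miR-99a-5p: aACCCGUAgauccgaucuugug
hsa-miR-99b-5p: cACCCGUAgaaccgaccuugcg
hsa-miR-10a-5p: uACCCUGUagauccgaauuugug
hsa-miR-99b-3p: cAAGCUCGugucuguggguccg
hsa-miR-10a-3p: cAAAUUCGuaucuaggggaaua
The seed ACCCGUA is common to 3 members, miR-99a-5p, miR-99b-5p and miR-100-5p. Counted from the 5′ end of miR-100-5p, miR-99a-5p differs from it by the single change A16U, and miR-99b-5p by the 4 changes A1C, U11A, A16C and U21C, all of them outside the seed. miR-10a-5p has another seed, ACCCUGU, and shares an unbroken run of 11 bases, GUAGAUCCGAA, with miR-100-5p.

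Hairpins are shown for the 3 genes that gave most of the family's counts, with both mature arms in capitals.
MIR100: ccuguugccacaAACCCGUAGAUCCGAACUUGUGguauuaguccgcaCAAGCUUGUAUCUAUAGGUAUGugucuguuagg
MIR99B: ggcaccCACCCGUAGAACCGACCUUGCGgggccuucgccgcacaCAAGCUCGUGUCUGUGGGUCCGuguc
MIR10A: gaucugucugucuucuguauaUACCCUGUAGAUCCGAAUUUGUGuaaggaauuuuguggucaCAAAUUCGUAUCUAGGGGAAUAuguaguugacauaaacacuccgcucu
MIR100 lies at chr11:122152229-122152308 on the minus strand, in an intron of the non-coding host MIR100HG. MIR99B lies at chr19:51692612-51692681 on the plus strand, in an intron of SPACA6 and opposite an exon of SPACA6P-AS. MIR10A lies at chr17:48579838-48579947 on the minus strand, in an intron of HOXB3 and, for 1 annotated transcript, an exon of HOXB4. From the first base of the 5p arm to the last base of the 3p arm, the hairpins measure 57 bases in MIR100, 60 in MIR99B and 63 in MIR10A. Over that stretch MIR99B is the richest in G and C of the 3, at 66.7%, against 43.9% in MIR100 and 38.1% in MIR10A. The 5p arm begins with A in MIR100, with C in MIR99B and with U in MIR10A.

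AQ-seq, a way of sequencing small RNA with less ligation bias, gave 12 libraries, which held 144067 to 255296 miRNA counts and 9529 to 14969 counts of 30 spike-in sequences. Levels are given on a pair of scales: counts scaled to the TMM-adjusted library size (CPM), which sets a miRNA against the bulk of the other miRNAs, and counts per 1000 spike-in counts, which sets it against the RNA added from outside. The labels do not state the amount of spike-in or the step at which it was added, and with total RNA fewer miRNA molecules per cell and less RNA per spike-in cannot be told apart. The scales differ most in R821E, where the libraries held 15.3 and 13.4 miRNA counts per spike-in count, against 22.4 and 25.9 in WT. In the same R821E libraries miR-21-5p took 58.0% and 54.0% of miRNA counts, against 37.7% and 43.2% in WT. From TMM to spike-in scale, the median log2 fold change of all 374 tested miRNAs moved from -0.10 to -1.38 for R821E, from -0.02 to -0.35 for R821A, from 0.03 to -0.56 for E5, from 0.00 to -0.46 for A5 and from 0.00 to -0.45 for ΔPAZ helix, each against WT. All comparisons with WT share the same 2 WT libraries. The labels do not say whether replicates were separate cultures; p-values therefore cover the spread between these libraries, which may be technical. Of 8 epithelial and intestinal marker miRNAs, 5 averaged at least 100 CPM. Of 18 listed markers of other cell types, 16 had an entry and 6 of these averaged at least 100 CPM. The summed levels ran from 1324 to 2649 CPM and from 2452 to 3074 CPM, and the markers' part in the results was not tested.

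miR-100-5p and miR-10a-5p made up most of the family in every library. miR-100-5p had 3066 to 5113 counts per library and held 52.5% to 55.9% of the family's counts in the group means, and miR-10a-5p had 1920 to 3757 counts and held 36.7% to 42.0%. miR-100-5p was above miR-10a-5p in all 12 libraries, by a factor of 1.12 to 1.60. The other members were far lower. miR-10b-5p, from the HOXD cluster, had 113 to 229 counts, miR-99b-5p 69 to 527, miR-10a-3p 33 to 64 and miR-99b-3p 3 to 43. miR-99a-5p had 0 to 7 counts in a library and 30 in all, and was the 1 member of 7 that the filter on low counts left out of the tests. Of the 6 tested, miR-99b-3p reached the filter's cutoff, a count of 10 rescaled to each library's size, in 11 of 12 libraries and the other 5 members did so in all 12.

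As a whole, the family took a larger share of miRNA counts in the mutants but kept its level against the spike-ins. The R821E libraries held 3.91% and 4.24% of their miRNA counts in the family, the R821A libraries 3.78% and 3.14%, the E5 libraries 3.61% and 3.35%, the A5 libraries 3.39% and 3.39%, the ΔPAZ helix libraries 3.46% and 3.43%, and the WT libraries 2.98% and 2.23%. Both WT libraries lay below every mutant library, and R821E was the highest. Per 1000 spike-in counts the R821E libraries held 599 and 566 family counts, the R821A libraries 666 and 674, the E5 libraries 640 and 553, the A5 libraries 622 and 632, the ΔPAZ helix libraries 711 and 612, and the WT libraries 669 and 579. On that scale the mutant libraries lay around the WT libraries, and R821E was not the highest. These sums mostly reflect miR-100-5p and miR-10a-5p and hide the other members.

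**Figure D1:**
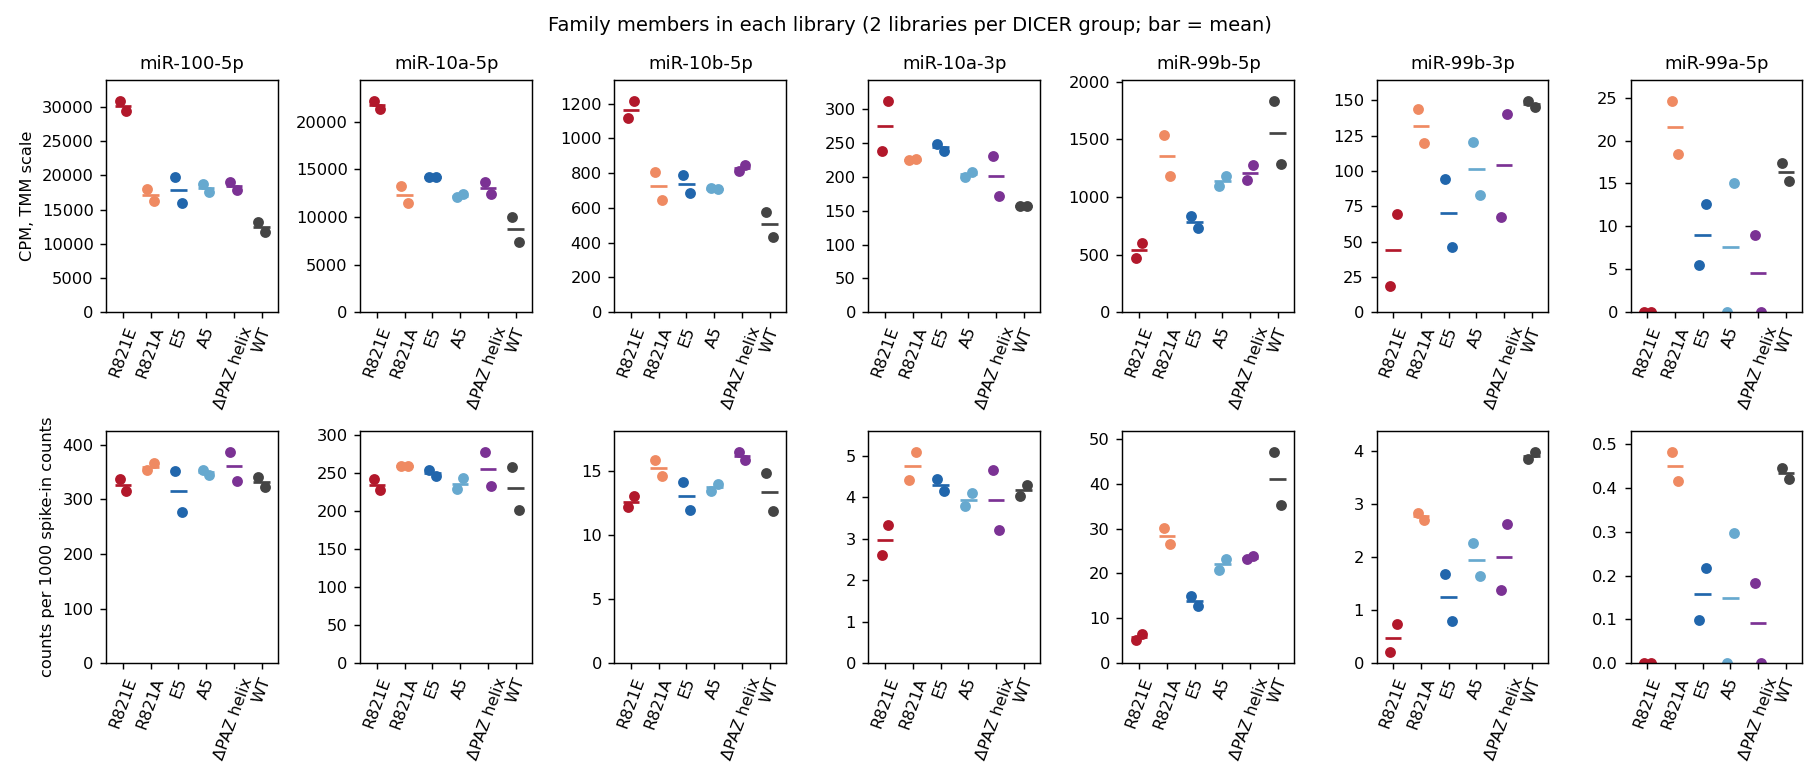
Level of each of the 7 members in each of the 12 libraries, on linear axes from 0, with the mutants to the left of WT: the upper row gives CPM after TMM scaling and the lower row counts per 1000 spike-in counts, with 1 point per library and a bar at the group mean. miR-100-5p stands highest in R821E in the upper row, at 30912 and 29486 CPM, and level with WT in the lower row, while miR-99b-5p is lowest in R821E in both rows.

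In R821E against WT the family split. miR-100-5p, miR-10a-5p and miR-10b-5p rose on the TMM scale by 2.30- to 2.50-fold and were near the WT level relative to the spike-ins, while both strands of miR-99b fell on both scales. As a share of total miRNA counts the rise of these 3 was smaller. The mean share of miR-100-5p was 2.28% in R821E and 1.38% in WT. For miR-10a-5p it was 1.64% and 0.964%, and for miR-10b-5p 0.0883% and 0.0560%. All 6 tested members passed the edgeR quasi-likelihood test on the TMM scale (adjusted p under 0.05 over all entries), 4 higher and 2 lower, in a comparison in which 47.9% of all tested miRNAs were called, 23.8% higher and 24.1% lower. A call by itself therefore says little here, and the direction and size carry the description. The family's median log2 fold change was 1.00, against -0.10 for all tested miRNAs.

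miR-100-5p, the most abundant member, had 30912 and 29486 CPM in R821E, against 13239 and 11741 CPM in WT. The groups did not overlap, and the log2 fold change was 1.27 ± 0.135 (SE), with an edgeR adjusted p of 1.31e-05. Per 1000 spike-in counts it had 337 and 315 counts in R821E, against 340 and 322 in WT. On that scale the groups overlapped, and the log2 fold change was -0.02 with a 95% interval of -0.33 to 0.29 (edgeR adjusted p = 0.921).

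miR-10a-5p, from the HOXB cluster, followed the same course, with 22188 and 21315 CPM in R821E, against 10044 and 7353 CPM in WT. The R821E libraries lay above both WT libraries, and the log2 fold change was 1.32 ± 0.149 (edgeR adjusted p = 1.86e-05). Per 1000 spike-in counts it had 242 and 228 counts in R821E, against 258 and 201 in WT, so that both R821E libraries lay between the WT libraries. miR-10b-5p had 1116 and 1216 CPM in R821E, against 578 and 433 CPM in WT, a log2 fold change of 1.20 ± 0.204 (edgeR adjusted p = 4.56e-04). Its spike-in estimate was -0.09, with an interval of -0.50 to 0.32. These 3 members lay among the highest fold changes of all miRNAs, at places 332, 340 and 325 of 374 counted from the lowest.

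miR-10a-3p, the minor strand of its hairpin, had 239 and 313 CPM in R821E, against 157 and 157 CPM in WT. Its log2 fold change of 0.80 ± 0.258 passed the test narrowly (edgeR adjusted p = 0.0208) on 36 to 45 counts per library. The call was lost without WT replicate 1 (adjusted p = 0.0672), WT replicate 2 (0.0776) or R821E replicate 2 (0.136), and scaling by total counts gave 0.25 (0.452). The spike-in estimate was -0.49, with an interval of -1.08 to 0.09.

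miR-99b-5p had 472 and 599 CPM in R821E, against 1834 and 1283 CPM in WT. Both R821E libraries lay far below both WT libraries, and the log2 fold change of -1.55 ± 0.224 corresponds to a 2.93-fold lower level (edgeR adjusted p = 1.46e-04). Against the spike-ins the gap was wider, with 5.14 and 6.40 counts per 1000 spike-in counts in R821E and 47.1 and 35.2 in WT. The log2 fold change on that scale was -2.84 ± 0.212, or 7.16-fold lower (edgeR adjusted p = 2.07e-07). On the spike-in scale 60.4% of all tested miRNAs were called lower in R821E, and miR-99b-5p stood at place 30 of 374 from the lowest. Leaving out any 1 of the 4 libraries kept the call on both scales.

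miR-99b-3p, the partner strand, had 3 and 8 counts in R821E, against 43 and 38 counts in WT. In CPM these were 18.4 and 69.5 in R821E, against 149.7 and 145.5 in WT, and the first R821E library holds only the 3 counts taken as the detection floor. On the TMM scale the log2 fold change was -1.86 ± 0.559 (edgeR adjusted p = 0.0145), and against the spike-ins it was -3.13 ± 0.528 (1.69e-04). Without R821E replicate 1 the TMM estimate was -1.08 and the call was lost (adjusted p = 0.184), so its size rests largely on that library.

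**Figure D2:**
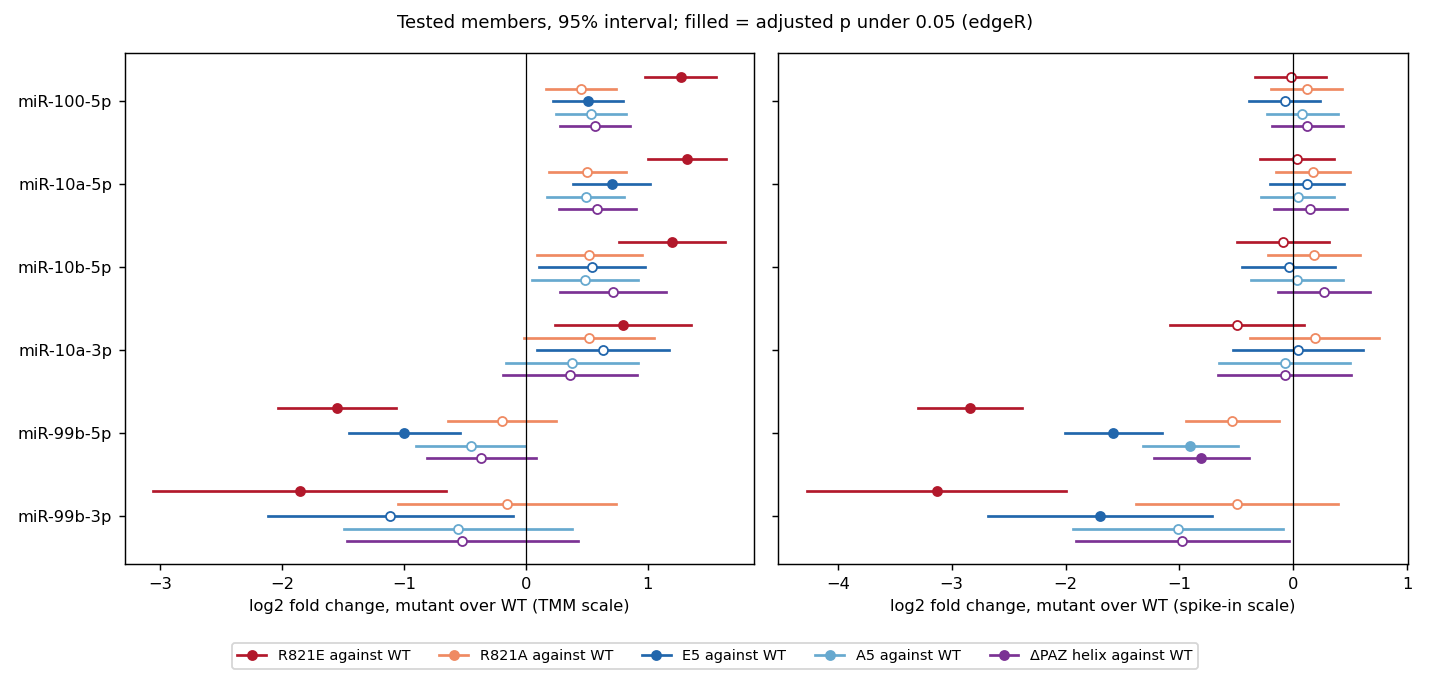
Log2 fold change of each tested member in each mutant over WT with its 95% interval, on the TMM scale (left) and the spike-in scale (right), from edgeR, with filled points for an adjusted p under 0.05. In R821E, miR-100-5p, miR-10a-5p, miR-10b-5p and miR-10a-3p lie right of 0 in the left panel and near or left of 0 in the right panel, while miR-99b-5p lies at -1.55 and -2.84.

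The difference between members was tested directly, and without either scale, by setting every entry against miR-100-5p in the same library, a setting chosen after the values were seen. miR-100-5p exceeded miR-99b-5p by a factor of 65.5 and 49.2 in R821E, against 7.22 and 9.15 in WT, and relative to miR-100-5p, miR-99b-5p was 7.01-fold lower in R821E than in WT (log2 fold change -2.81 ± 0.248, edgeR adjusted p = 6.85e-08). miR-99b-3p moved with it, at -3.11 ± 0.524. By contrast, the ratio of miR-100-5p to miR-10a-5p ran from 1.12 to 1.60 over all 12 libraries, and miR-10a-5p was at 0.06 in R821E relative to miR-100-5p, with an interval of -0.32 to 0.44. miR-10b-5p was at -0.06 (interval -0.55 to 0.43). Members with the same seed, miR-100-5p and miR-99b-5p, thus diverged, while miR-100-5p and miR-10a-5p, with different seeds, were not distinguishable. The median of all entries relative to miR-100-5p was -1.37, so that most miRNAs were also lower than WT on that measure, by less than miR-99b-5p. Because miR-100-5p itself was at -0.02 on the spike-in scale, this measure nearly repeats that scale in R821E. There miR-99b-5p was at -2.84 and the median at -1.38. A call relative to miR-100-5p is therefore not separate support for a call on the spike-in scale.

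**Figure D3:**
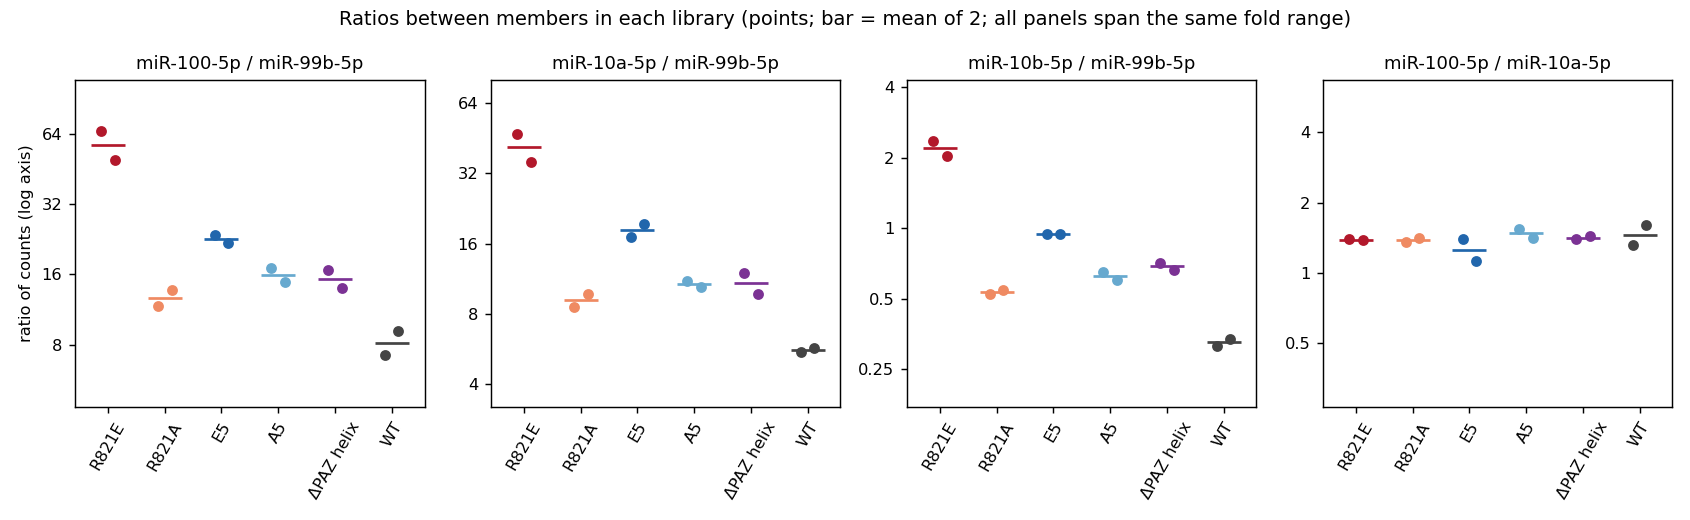
Ratios of counts between members in each library, on log axes, with 1 point per library, a bar at the group mean, and the mutants to the left of WT. The ratio of miR-100-5p to miR-99b-5p averages 57.3 in R821E and 8.19 in WT with the other mutants between them, whereas the ratio of miR-100-5p to miR-10a-5p stays between 1.12 and 1.60.

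The order of the lower members differed between R821E and WT. The mean share of miR-99b-5p in the family was 0.995% ± 0.192 for R821E, 4.24% for R821A, 2.31% for E5, 3.51% for A5, 3.58% for ΔPAZ helix and 6.56% ± 0.691 for WT (SD, n = 2). The ratio of miR-10b-5p to miR-99b-5p was 2.36 and 2.03 in R821E, against 0.315 and 0.337 in WT. In E5 the ratio was 0.947 and 0.943, with 143 and 164 counts of miR-10b-5p beside 151 and 174 of miR-99b-5p, so these neighbours in the order do not differ beyond counting error there. miR-10b-5p thus stood above miR-99b-5p in both R821E libraries and below it in both WT libraries.

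In E5 against WT, miR-10a-5p and miR-100-5p were called higher and miR-99b-5p lower; E5 was not tested against R821E. On the TMM scale 3 of the 6 tested members passed, 2 higher and 1 lower, where 9.09% of all miRNAs were called, 2.41% higher and 6.68% lower. miR-10a-5p had 14200 and 14195 CPM in E5, against 10044 and 7353 CPM in WT (log2 fold change 0.71 ± 0.147, edgeR adjusted p = 0.0139), and miR-100-5p had 19739 and 15950 CPM in E5, against 13239 and 11741 CPM in WT (0.51 ± 0.133, 0.0313). miR-99b-5p had 836 and 729 CPM in E5, against 1834 and 1283 CPM in WT (-1.0 ± 0.212, 0.0139). Each of these 3 calls rests on few libraries. miR-100-5p lost it without WT replicate 2 (adjusted p = 0.160) or E5 replicate 1 (0.223), miR-10a-5p without WT replicate 2 (0.0746) or E5 replicate 2 (0.0848), and miR-99b-5p without WT replicate 1 (-0.69, 0.0757) or E5 replicate 2 (-0.91, 0.109). None of the 3 was called when only the E5 and WT libraries were fitted, and scaling by total counts also ended the call of miR-100-5p (0.41, 0.118).

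Against the spike-ins, miR-99b-5p in E5 was firmer. It had 14.9 and 12.7 counts per 1000 spike-in counts in E5, against 47.1 and 35.2 in WT, a log2 fold change of -1.58 ± 0.198 (edgeR adjusted p = 1.09e-04) where 27.3% of all miRNAs were called lower. Relative to miR-100-5p it was -1.49 ± 0.232 (2.97e-04), where the median of all entries was -0.47, and both calls held without any 1 library. miR-99b-3p had 17 and 11 counts in E5, against 43 and 38 in WT, and its spike-in estimate of -1.70 ± 0.457 passed (0.0159) but not without E5 replicate 2 (-1.22, 0.125). miR-100-5p and miR-10a-5p had spike-in estimates of -0.07 and 0.12 and were not called there.

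In A5 and ΔPAZ helix no member was called on the TMM scale, where 0.267% of all miRNAs were called in each. An unadjusted edgeR p under 0.05 was given to 4 members in A5 and 3 in ΔPAZ helix, and DESeq2 called 0 in either. The share of all miRNAs with such an unadjusted p is not given, so these member counts cannot be set against it. The miR-99b-5p estimates were -0.45 in A5 and -0.36 in ΔPAZ helix on that scale. Per 1000 spike-in counts, however, miR-99b-5p had 20.7 and 23.3 counts in A5 and 23.2 and 23.8 in ΔPAZ helix, against 47.1 and 35.2 in WT. These libraries lay below both WT libraries, with log2 fold changes of -0.90 ± 0.193 in A5 (edgeR adjusted p = 0.00956) and -0.81 ± 0.193 in ΔPAZ helix (0.0246), where 14.7% and 13.1% of all miRNAs were called lower. The A5 call was lost without either A5 library (adjusted p = 0.135 and 0.0523). The ΔPAZ helix call was lost without WT replicate 1 (-0.58, 0.0851) or either ΔPAZ helix library (0.115 and 0.185). Relative to miR-100-5p the estimates were -0.98 ± 0.227 in A5 (0.0114) and -0.92 ± 0.228 in ΔPAZ helix (0.0154), and those calls too were lost without either library of the mutant. The medians of all entries on that measure were -0.54 in A5 and -0.57 in ΔPAZ helix, so most miRNAs were also lower there.

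In R821A, the other substitution of the same arginine, no member was called on either scale, where the shares of all miRNAs called were 3.21% (TMM) and 4.28% (spike-in). An unadjusted edgeR p under 0.05 was given to 3 members (TMM) and 1 member (spike-in), again without the share of all miRNAs, and DESeq2 called 0. miR-99b-5p had 30.2 and 26.6 counts per 1000 spike-in counts in R821A, against 47.1 and 35.2 in WT, a log2 fold change of -0.53 with an interval of -0.95 to -0.12 (edgeR adjusted p = 0.133). On the TMM scale it had 1537 and 1180 CPM in R821A, against 1834 and 1283 CPM in WT, and the groups overlapped. Relative to miR-100-5p, miR-99b-5p was at -0.65 in R821A, with an interval of -1.12 to -0.17 (edgeR adjusted p = 0.0906). The median of all entries on that measure was -0.47. The ratio of miR-100-5p to miR-99b-5p was 11.7 and 13.75 in R821A, above the 7.22 and 9.15 of WT. miR-100-5p had 17986 and 16226 CPM in R821A, against 13239 and 11741 CPM in WT, a log2 fold change of 0.45 that did not pass (0.0949). Without WT replicate 1, miR-10a-5p was called in R821A (0.76, adjusted p = 0.00475), A5 (0.71, 0.0165) and ΔPAZ helix (0.82, 0.0155), and miR-100-5p in ΔPAZ helix (0.65, 0.0427).

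Set directly against each other, the substitutions of the arginine differed in the family. In R821E against R821A, 5 of the 6 tested members were called on the TMM scale, 3 higher and 2 lower, where 41.4% of all miRNAs were called, 21.9% higher and 19.5% lower. miR-99b-5p had 472 and 599 CPM in R821E, against 1537 and 1180 CPM in R821A (log2 fold change -1.35 ± 0.224, edgeR adjusted p = 7.12e-04), and on the spike-in scale the estimate was -2.31 ± 0.210 (1.70e-06). Relative to miR-100-5p it was -2.16 ± 0.245 (3.11e-06), where the median of all entries was -0.88, and each of these 3 calls held without any 1 library. miR-99b-3p was at -1.70 ± 0.568 (0.0291) and lost its TMM call without R821E replicate 1 (-0.93, 0.275) or without R821A replicate 1 or 2 (0.111 and 0.0556); its spike-in estimate was -2.64 ± 0.540 (0.00104). miR-100-5p and miR-10a-5p were both at 0.82 (6.92e-04 and 0.00114) and miR-10b-5p at 0.68 (0.017), lost without R821E replicate 1 or 2 or R821A replicate 2 (0.0536, 0.0863 and 0.109). With total counts as the scale these 3 were no longer called, and on the spike-in scale they were at -0.14, -0.14 and -0.27, none called. miR-10a-3p was not called on the TMM scale (0.28) and was at -0.68 on the spike-in scale (adjusted p = 0.0492), a call that was lost without any 1 of the 4 libraries. On the spike-in scale 48.9% of all miRNAs were called lower.

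In E5 against A5 no member was called on either scale, as was true of all 374 miRNAs (0% called). An unadjusted edgeR p under 0.05 was given to 1 member on each scale, again without the share of all miRNAs, and DESeq2 called 0. miR-99b-5p had 836 and 729 CPM in E5, against 1098 and 1181 CPM in A5. The groups did not overlap, and the log2 fold change was -0.55 with an interval of -1.0 to -0.09 (edgeR adjusted p = 0.454). For miR-100-5p it was -0.02, with an interval of -0.31 to 0.26.

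The balance of the strands within a hairpin was tested as the log2 ratio of 5p to 3p counts, with limma. In R821E against WT, 55.1% of 69 hairpins shifted, with a median difference of 0.40 over all 69. Of the family's 2 testable hairpins neither was called, and both estimates lay close to or above that median. The mean log2 ratio of miR-99b was 3.75 ± 1.02 in R821E and 3.36 ± 0.337 in WT (SD, n = 2), a difference of 0.39 with an interval of -0.73 to 1.51 (limma adjusted p = 0.544). Its 5p strand thus outnumbered its 3p strand in both groups, and the 3 and 8 counts of miR-99b-3p in R821E leave a shift within that interval undetectable at this depth. The log2 ratio of miR-10a was 6.29 ± 0.315 in R821E and 5.76 ± 0.322 in WT, a difference of 0.54 with an interval of -0.04 to 1.11 (0.103). In R821E against R821A, where 37.7% of hairpins shifted and the median difference was 0.42, the differences were 0.41 for miR-99b and 0.54 for miR-10a, neither called. In the other comparisons, where 0% to 1.45% of hairpins shifted, the differences ran from -0.03 to 0.24 for miR-99b and from -0.04 to 0.26 for miR-10a, none called. The strand opposite miR-100-5p had 137 counts over all libraries and that opposite miR-10b-5p had 58, beside 47362 counts of miR-100-5p and 1950 of miR-10b-5p, so both hairpins were counted almost wholly as 5p. A lower minimum, a mean of 5 counts in both arms, let miR-100 be tested. The miR-100 difference was 0.28 in R821E against WT (limma adjusted p = 0.762), beside a median of 0.54 over 112 hairpins.

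miR-99a-5p, which has the same seed and differs from miR-100-5p by 1 base, was near the detection limit. Its counts summed over both libraries of a group were 0 for R821E, 11 for R821A, 4 for E5, 4 for A5, 2 for ΔPAZ helix and 9 for WT. At most it reached 0.137% of the miR-100-5p counts of the same library, and the floor of 3 counts stands at 10.4 to 26.0 CPM, so no change could be read. The labels do not say how reads matching both sequences were assigned, and the split between miR-99a-5p and miR-100-5p is uncertain to that extent.

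The hairpins that share a cluster with a member were compared next. MIR99B is followed on chromosome 19 by MIRLET7E after 104 bases and by MIR125A 572 bases away. let-7e-5p, whose family represses LIN28 and RAS genes, fell with miR-99b-5p in R821E: it had 245 and 399 CPM in R821E, against 811 and 1111 CPM in WT, a log2 fold change of -1.60 ± 0.255 (edgeR adjusted p = 2.82e-04). It also fell in E5 (-1.24, 0.0097) and, unlike miR-99b-5p, in R821A (-1.34, 0.0043), though that contrast between the hairpins was not tested. On the spike-in scale let-7e-5p was called lower in all 5 mutants. miR-125a-5p, from the same cluster, did not share the fall on the TMM scale, with 852 and 686 CPM in R821E, against 734 and 1111 CPM in WT (-0.25 ± 0.301, 0.519). On the spike-in scale it was at -1.56 ± 0.317 in R821E (7.63e-04), near the median of all miRNAs, and was not called in the other mutants. let-7e shares much sequence with other let-7 members, and its counts are uncertain singly.

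**Figure D4:**
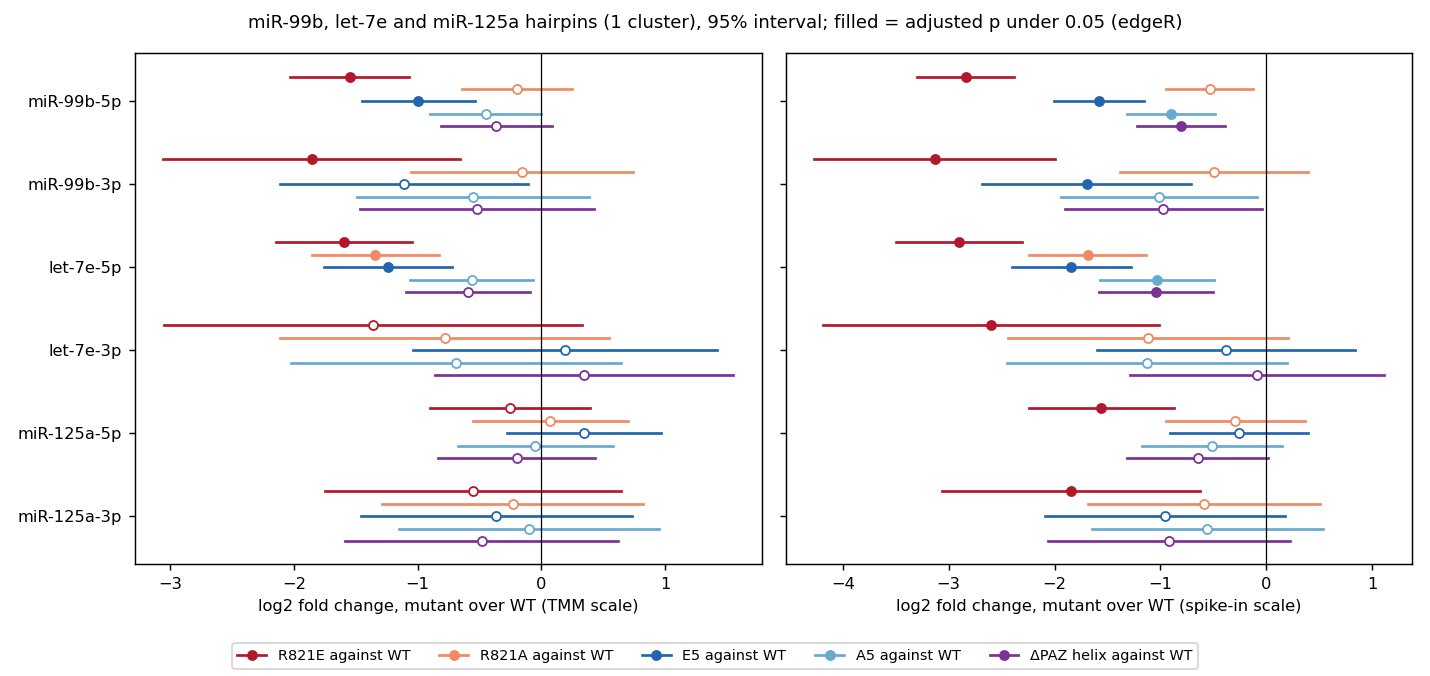
Log2 fold change over WT with its 95% interval for the strands of the 3 hairpins of the miR-99b cluster, on the TMM scale (left) and the spike-in scale (right), from edgeR, with filled points for an adjusted p under 0.05. In R821E, miR-99b-5p at -1.55 and let-7e-5p at -1.60 lie well left of miR-125a-5p at -0.25 on the TMM scale.

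In the cluster of miR-100 no neighbouring strand was called higher with it. MIR100 is followed on chromosome 11 by MIRLET7A2 after 5635 bases and MIR125B1 after 52384 bases. In R821E against WT on the TMM scale miR-100-5p rose, while miR-125b-5p was at 0.32 ± 0.402 (edgeR adjusted p = 0.549), miR-125b-1-3p at -1.0 ± 0.543 (0.144) and let-7a-2-3p at 0.81 ± 0.591 (0.271), none called. Counts of the 3p strands were low. miR-125b-1-3p had 6 and 5 in R821E, against 25 and 19 in WT, and let-7a-2-3p had 7 and 9, against 6 and 12. The missing call of let-7a-2-3p therefore does not show that it differed from miR-100-5p. let-7a-5p, which other let-7a genes also give, fell by 0.44 on the log2 scale (0.0426). let-7c-5p, from the hairpin 658 bases from MIR99A on chromosome 21, was at -0.64 ± 0.523 (0.330). miR-125b-5p has a second gene in that cluster, so its counts cannot be assigned to the miR-100 cluster alone.

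Over the 12 libraries the members fell into opposing patterns on the TMM scale. miR-100-5p correlated with miR-10a-5p (Pearson r = 0.96) and miR-10b-5p (0.96), miR-99b-5p with miR-99b-3p (0.86), and miR-99b-5p ran against miR-100-5p (-0.79) and miR-10a-5p (-0.81). These are descriptions over libraries that share groups and scaling, with the R821E libraries at 1 end. Among all entries averaging at least 100 CPM, those most like miR-100-5p were miR-454-5p (0.98), miR-183-5p (0.97) and miR-10b-5p (0.96), and those most like miR-10a-5p were miR-454-5p (0.97), miR-1260b (0.97) and miR-7974 (0.96). Those most like miR-10b-5p were miR-100-5p (0.96), miR-10a-5p (0.96) and miR-454-5p (0.95). Those most like miR-99b-5p were miR-222-3p (0.93), miR-27b-3p (0.93) and miR-221-3p (0.92), and those most like miR-99b-3p were miR-99b-5p (0.86), miR-483-3p (0.85) and miR-92b-3p (0.82). For miR-10a-3p they were miR-181a-2-3p (0.89), miR-7974 (0.84) and miR-10a-5p (0.82).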

How the data were processed

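Small RNA of HCT116 cells was sequenced in 12 AQ-seq libraries, 2 for each of 6 DICER rescue groups, taken from the labels. The authors deposited whole-number counts for each entry, which they had not normalised. The tools cutadapt, BWA and bedtools and the builds mm10 and hg38 come from the submitters' processing notes; their versions and roles, and the treatment of reads matching several miRNAs, were not stated. The 30 spike-in entries were kept out of miRNA library sizes and tests.

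Counts were fitted with edgeR 4.0.16 (R 4.3.3; robust quasi-likelihood test, TMM factors, filterByExpr with a minimum count of 10 by group) in 1 fit over 12 libraries, leaving 6 residual degrees of freedom and 374 of 1346 entries, which held 99.6% of miRNA counts. p-values were adjusted by Benjamini-Hochberg over all 374, with a threshold of 0.05. The SE of a log2 fold change was its size divided by the square root of the test's F. The spike-in scale used the summed spike-in counts as library sizes. Strand balance was log2((5p + 0.5)/(3p + 0.5)), tested with limma 3.58.1 (trend and robust) for the 69 hairpins whose arms both averaged 20 counts or more. The scripts were tested on simulated data.

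Each mutant was compared with WT, R821E with R821A and E5 with A5. Alternatives were DESeq2 1.42.0, its size factors, total counts, the spike-in scale, no filter, only the 4 libraries compared, a replicate block, other minimums and pseudocounts, and each replicate left out; alternatives on the spike-in scale and the scale of miR-100-5p counts were added after seeing the data. Named entries were the 7 members, the opposite strands, the neighbours on the genome, and the 3 entries most correlated with each member. The members and lists were chosen with earlier results of these data known.

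Replicates differed by more than sampling noise (chi-square per degree of freedom 3.83 to 25.6). The highest value was that of WT, the reference for every mutant, and the next was 14.6 in E5. The fit pooled the spread over all groups, so an SE against WT does not carry the spread of WT alone. At these depths 3 counts equal 10.4 to 26.0 CPM on the TMM scale, a limit that covers counting error alone: amplified reads were counted without molecular identifiers. Sequences and hairpin coordinates are from RefSeq (GRCh38.p14) and gene context from GENCODE on GRCh38.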

Additional observations from a re-analysis of the deposited data

How the results depend on the processing

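Depth limits miR-99b-3p (3 counts in 1 R821E library) and miR-99a-5p (30 counts in all); 2 libraries a group leave calls open to single libraries. The directions and calls of miR-99b-5p in R821E against WT and against R821A held under every alternative run. DESeq2 and its size factors kept all 14 calls of members and comparisons; so did the replicate block, and replicate numbers did not pair the libraries: of 15 pairs of groups, 1 had a correlation of same-numbered deviations over 0.1 (range -0.50 to 0.37). With the replicate block all 6 members stayed called in R821E against WT, while in R821E against R821A the count on the spike-in scale was 2 in place of 3. The cause of the changes below was not tested. The counts of members below are given without the share of all miRNAs called under the same setting. A change in them may therefore not be particular to the family.

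Members called with other settings: on the spike-in scale 2 in R821E, 1 in A5 and 1 in ΔPAZ helix against WT and 3 in R821E against R821A; with total counts 2 in R821E against R821A; with no filter 2 in ΔPAZ helix; with only the 4 libraries 0 in E5. Total counts ended 5 of the 14 calls: miR-10a-3p in R821E (0.25) and miR-100-5p in E5 (0.41) against WT, and miR-100-5p (0.30), miR-10a-5p (0.29) and miR-10b-5p (0.16) in R821E against R821A. No filter ended 2: miR-10a-3p in R821E against WT (0.62) and miR-10b-5p in R821E against R821A (0.50). In R821E against WT, leaving out any 1 of the 4 libraries ended the call of miR-10a-3p or that of miR-99b-3p. Leaving out 1 replicate gave 0 to 1 in R821A, 1 to 2 in E5, 0 to 1 in A5, 0 to 2 in ΔPAZ helix and 3 to 4 in R821E against R821A. Calls on the spike-in scale fell to 1 in E5, 0 in A5 and 0 in ΔPAZ helix with only the 4 libraries, and to 0 in ΔPAZ helix with TMM over the spike-ins; single omissions gave 1 to 2 in E5, 0 to 1 in A5 and 0 to 1 in ΔPAZ helix.

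On the spike-in scale these log2 fold changes turned negative: miR-100-5p in R821E (-0.022) and E5 (-0.074), miR-10b-5p in R821E (-0.090) and E5 (-0.041), and miR-10a-3p in R821E (-0.49), A5 (-0.077) and ΔPAZ helix (-0.076), each against WT; in R821E against R821A, miR-100-5p (-0.14), miR-10a-5p (-0.14), miR-10b-5p (-0.27) and miR-10a-3p (-0.68, and -0.24 with total counts); and miR-10b-5p in E5 against A5 (-0.077). miR-100-5p in E5 against A5 turned to 0.017 with DESeq2, 0.017 with its size factors and 0.038 with no filter, and single omissions gave -0.12 to 0.17; for miR-99b-5p in R821A they gave -0.48 to 0.093.

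The uncalled strand ratio of miR-99b turned with a pseudocount of 5 in R821E (-0.29), E5 (-0.072), R821E against R821A (-0.24) and E5 against A5 (-0.10), and that of miR-10a in R821A (0.028). Single omissions gave for miR-99b -0.33 to 1.11 in R821E, -0.26 to 0.21 in R821A, -0.25 to 0.56 in E5, -0.20 to 0.44 in A5, -0.20 to 0.68 in ΔPAZ helix, -0.31 to 1.13 in R821E against R821A and -0.37 to 0.44 in E5 against A5, and for miR-10a -0.23 to 0.23 in R821A, -0.14 to 0.32 in E5 and -0.10 to 0.36 in A5. The family's log2 share over WT was -0.10 in R821E, -0.064 in E5, 0.012 in A5 and 0.084 in ΔPAZ helix per spike-in count, and 1.09 in R821E with miR-21-5p left out of the total.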
